A study of Mus musculus with 10 samples.

Results

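A set of 10 genes of cytotoxic and natural killer (NK) lymphocytes were followed in CD4-selected spleen cells of NOD and B10 mice, namely Nkg7, Gzma, Gzmb, Gzmk, Prf1, Klrb1c, Klrd1, Klrk1, Ncr1 and Ctsw. They were taken by name, and all 10 were measured, each by 1 probe set, among 19938 genes on the arrays. NK cells and cytotoxic T cells kill target cells by releasing granules that hold perforin, which opens the target membrane, and granzymes, proteases that start the death of the target. Activating and inhibitory lectin-like receptors on the killer cell set whether the granules are released. CD4 T cells mostly help other cells, yet activated CD4 cells can carry granzymes, and NKT cells share receptors with NK cells.

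RNA came from splenocytes of female mice aged 8 weeks, of the NOD strain (genotype NODk) or the B10 strain (genotype B10Br), taken with magnetic CD4 beads. The T1 groups (NOD, n = 2, and B10, n = 2) received the phorbol ester PMA at 10 ng/ml with the calcium ionophore ionomycin at 1 uM for 4 hours, a treatment that bypasses the T cell receptor. The T0 groups (NOD, n = 3, and B10, n = 3) were unstimulated. T0 is named a basal state, while the treatment text may mean that unstimulated cells were cultured for the same time, so the handling of T0 cells is unclear. The labels name biological replicates without saying which animals they came from, so p-values measure only the spread between these samples. Selection was for Cd4 alone, so the cells are a mixture, and in such a mixture fewer cells of a type and less RNA per cell cannot be told apart.

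Values are log2 intensities from 10 arrays, 1 per sample, and the small number of arrays limits precision. Array medians lay between 6.18 and 6.23. No detection calls were used here, and folds of genes near background are understated. Only Nkg7, Gzmb, Prf1 and Ctsw had a mean over all arrays above the median gene mean, and the other 6 members were below it. The mean of 8 CD4 T cell markers was 9.46 to 10.18 on every array. Markers of other lineages were also measured. The mean of 10 monocyte and macrophage markers was 6.96 to 7.31 in NOD T1, 8.62 to 8.91 in NOD T0, 6.55 to 6.74 in B10 T1 and 7.85 to 8.25 in B10 T0. The mean of 5 erythroid markers was 10.02 to 10.49 in NOD T1, 9.87 to 10.43 in NOD T0, 7.42 to 9.21 in B10 T1 and 7.07 to 9.15 in B10 T0. The highest erythroid mean of each B10 group was on its replicate 3 array. Differences were tested with limma, with Benjamini-Hochberg adjustment across all 19938 genes (threshold 0.05). SE is limma's standard error.

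**Figure D1:**
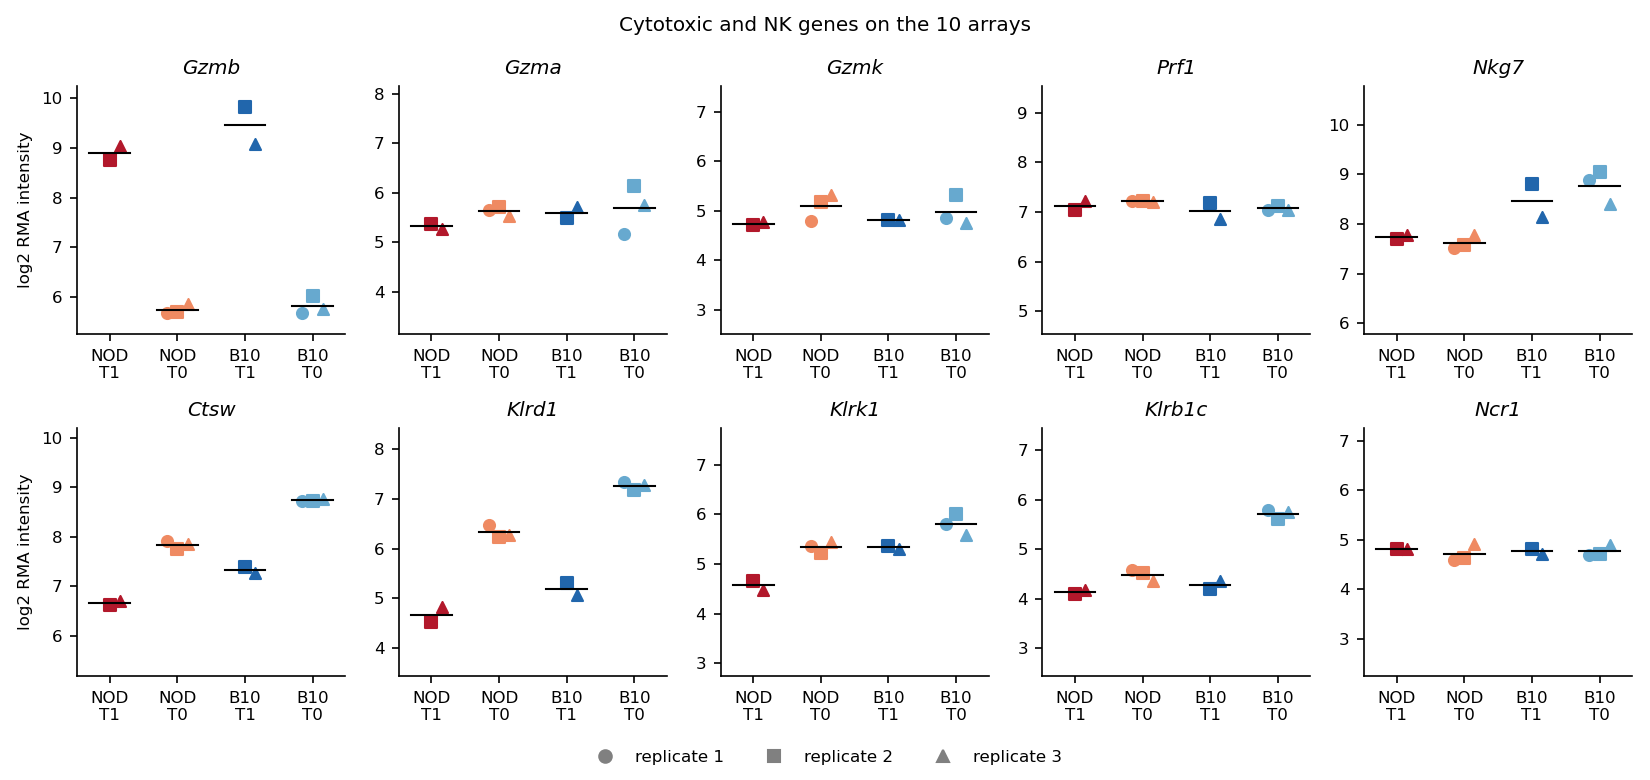
Log2 intensity of each of the 10 genes on every array, by group; points are arrays and bars are group means. Gzmb is high on all 4 T1 arrays, and Klrb1c, Klrd1 and Ctsw are highest on the 3 B10 T0 arrays.

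Gzmb, which encodes granzyme B, was the 1 member that rose with stimulation, and its promoter is shown with those of Gzma and Gzmk, 2 tryptase-like granzymes that did not pass the test. The sequences are the 250 bases before the annotated start, from RefSeq on GRCm38.p6, on the strand of the gene. Capitals mark matches on either strand to TGANTCA, the AP-1 motif, and TGTGGT, the RUNX motif (ACCACA on the other strand). AP-1 and RUNX are families of transcription factors active in T cells, and PMA is a textbook inducer of AP-1.
Gzmb promoter, chr14:56262335-56262584, minus strand: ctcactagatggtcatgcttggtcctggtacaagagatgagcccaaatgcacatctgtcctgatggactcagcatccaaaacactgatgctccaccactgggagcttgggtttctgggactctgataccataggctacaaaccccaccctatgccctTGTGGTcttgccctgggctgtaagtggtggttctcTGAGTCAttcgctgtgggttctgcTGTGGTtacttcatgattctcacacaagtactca
Gzma promoter, chr13:113100982-113101231, minus strand: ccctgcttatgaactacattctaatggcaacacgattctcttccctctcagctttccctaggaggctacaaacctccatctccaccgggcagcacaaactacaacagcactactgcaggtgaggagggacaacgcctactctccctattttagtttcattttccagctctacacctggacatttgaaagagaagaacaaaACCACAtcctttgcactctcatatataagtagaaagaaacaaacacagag
Gzmk promoter, chr13:113180966-113181215, minus strand: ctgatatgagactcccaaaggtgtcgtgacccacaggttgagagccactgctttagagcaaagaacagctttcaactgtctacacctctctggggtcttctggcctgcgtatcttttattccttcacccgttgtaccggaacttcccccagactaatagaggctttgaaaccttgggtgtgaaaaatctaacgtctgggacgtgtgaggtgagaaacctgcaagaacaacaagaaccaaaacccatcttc

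TGANTCA occurred in 6.75% of 32817 mouse promoters of this length and in 1 of the 8 members whose promoters were matched. That member was Gzmb, where TGAGTCA lay 58 to 52 bases before the start. TGTGGT occurred in 14% of all promoters and in 7 of 8 members, all but Gzmk. Gzmb held it at 93 to 88 and at 34 to 29 bases before the start. GGAAA, the core that NFAT proteins bind, occurred in 55.6% of all promoters and in 3 of 8 members, namely Nkg7, Gzma and Klrb1c. These are letter matches and not bound sites. Klrd1 and Ctsw had no matched entry.

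Stimulation went with higher Gzmb and lower Klrb1c, Klrd1, Klrk1 and Ctsw in both strains. In NOD, 1 member rose and 4 fell out of 10, while 35.5% of all genes passed the test (16.1% higher and 19.5% lower). That split depended on scaling, since arrays scaled to one 75th percentile gave 5393 genes higher and 3145 lower in NOD. In B10, 1 member rose and 4 fell, while 31.8% of all genes passed (13.7% higher and 18.1% lower). Calls were thus common among all genes in both strains. The median difference over the members was -0.33 in NOD, against 0.08 over all genes, and -0.24 in B10, against 0.03 over all genes.

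Granzyme B is the granule protease that cleaves caspases in the target cell. Gzmb had log2 intensities of 8.76 and 9.04 on the NOD T1 arrays, against 5.67, 5.69 and 5.85 on the NOD T0 arrays. It had 9.83 and 9.09 in B10 T1, against 5.67, 6.01 and 5.76 in B10 T0. The T1 and T0 arrays were far apart in both strains, and the 2 B10 T1 arrays differed from each other more than any pair of T0 arrays. The T1 minus T0 difference was 3.16 ± 0.19 (SE) in NOD, an 8.95-fold rise (limma, adjusted p = 5.54e-08), and 3.65 ± 0.19 in B10, a 12.6-fold rise (adjusted p = 1.77e-08). Without 1 array at a time it stayed between 3.02 and 3.30 in NOD and between 3.28 and 4.02 in B10.

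The other granule effectors gave no call. Prf1 encodes perforin, the pore former that delivers granzymes. Its level was 7.04 and 7.22 in NOD T1, against 7.22, 7.22 and 7.20 in NOD T0, and 7.19 and 6.86 in B10 T1, against 7.04, 7.13 and 7.05 in B10 T0. The T1 and T0 values lay close together, with differences of -0.09 in NOD (limma, adjusted p = 0.581) and -0.05 in B10 (adjusted p = 0.8). Gzma averaged 5.32 ± 0.06 in NOD T1 and 5.63 ± 0.09 in NOD T0, and 5.60 ± 0.15 in B10 T1 and 5.69 ± 0.49 in B10 T0 (SD). Gzmk averaged 4.74 ± 0.04 in NOD T1 and 5.10 ± 0.27 in NOD T0, and 4.81 ± 0.01 in B10 T1 and 4.98 ± 0.30 in B10 T0. In NOD the T1 arrays of both genes lay below the T0 arrays. The NOD differences were -0.31 for Gzma (limma, adjusted p = 0.269) and -0.36 for Gzmk (adjusted p = 0.123). In B10 they were -0.09 (adjusted p = 0.82) and -0.16 (adjusted p = 0.556), with overlap. Without NOD T0 replicate 1, Gzmk passed the test in 1 of the 5 comparisons. Gzma and Gzmk are neighbours on chromosome 13 with no protein-coding gene between them, whereas Gzmb is on chromosome 14.

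Nkg7 encodes a membrane protein of the granule that takes part in granule release. It had 7.70 and 7.77 in NOD T1, against 7.52, 7.57 and 7.78 in NOD T0, and 8.80 and 8.13 in B10 T1, against 8.88, 9.04 and 8.40 in B10 T0. T1 and T0 overlapped in both strains, with differences of 0.11 ± 0.20 in NOD (limma, adjusted p = 0.695) and -0.31 ± 0.20 in B10 (adjusted p = 0.306). The B10 value depended on single arrays: it was 0.03 without T1 replicate 3, and -0.64, past the threshold (adjusted p = 0.0375), without T1 replicate 2.

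Ctsw encodes cathepsin W, a cysteine protease found mainly in NK cells and cytotoxic T cells. Ctsw read 6.62 and 6.70 in NOD T1, against 7.92, 7.75 and 7.86 in NOD T0, and 7.40 and 7.27 in B10 T1, against 8.73, 8.72 and 8.77 in B10 T0. All T1 arrays were below all T0 arrays. The difference was -1.18 ± 0.10 in NOD, a 2.27-fold fall (limma, adjusted p = 7.38e-07), and -1.40 ± 0.10 in B10, a 2.65-fold fall (adjusted p = 1.72e-07).

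**Figure D2:**
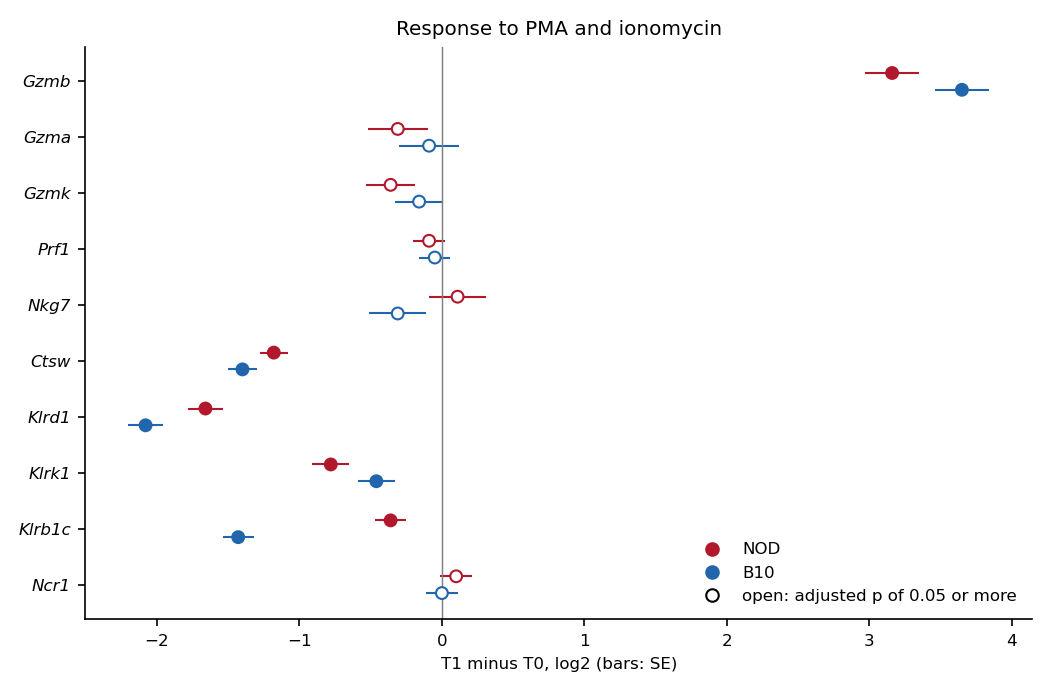
Log2 difference of T1 minus T0 for each gene, with NOD and B10 side by side and error bars of 1 standard error from limma. Gzmb lies above 3 in both strains, and Klrd1 and Ctsw lie below -1 in both.

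The receptor genes fell or gave no call. Klrd1 encodes CD94, which pairs with NKG2 proteins to read the nonclassical class I molecule Qa-1. Its level was 4.52 and 4.82 in NOD T1, against 6.47, 6.23 and 6.27 in NOD T0, and 5.31 and 5.07 in B10 T1, against 7.34, 7.18 and 7.29 in B10 T0. The T1 arrays were more than 1 log2 unit below the T0 arrays in both strains. The difference was -1.66 ± 0.12 in NOD, a 3.16-fold fall (limma, adjusted p = 3.66e-07), and -2.08 ± 0.12 in B10, a 4.21-fold fall (adjusted p = 5.97e-08).

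Klrk1 encodes NKG2D, an activating receptor for stress-induced ligands. It read 4.65 and 4.48 in NOD T1, against 5.36, 5.21 and 5.44 in NOD T0, and 5.36 and 5.31 in B10 T1, against 5.81, 6.0 and 5.58 in B10 T0. The groups did not overlap within either strain. The difference was -0.78 ± 0.13 in NOD (limma, adjusted p = 0.00031) and -0.46 ± 0.13 in B10 (adjusted p = 0.0123), and the B10 call was lost without T1 replicate 3 or T0 replicate 2.

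Klrb1c encodes the NK1.1 antigen, a marker of NK and NKT cells that the usual antibody stains in some strains and not in NOD. Klrb1c had 4.10 and 4.17 in NOD T1, against 4.58, 4.52 and 4.37 in NOD T0, and 4.20 and 4.37 in B10 T1, against 5.79, 5.62 and 5.75 in B10 T0. The fall was 1.43 on the log2 scale in B10, or 2.7-fold (SE 0.11, limma adjusted p = 3.46e-07). In NOD the difference was -0.36 ± 0.11 (limma, adjusted p = 0.0185). The NOD call was lost with arrays scaled to one 75th percentile (-0.23, adjusted p = 0.104), with array weights (-0.30, adjusted p = 0.0834), and without T1 replicate 2 or T0 replicate 1.

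Ncr1 encodes NKp46, an activating receptor that marks NK cells across mammalian species. Its 4 group means lay between 4.71 and 4.82, the narrowest span of the 10 members. Neither stimulation difference passed the test, with 0.10 in NOD (limma, adjusted p = 0.508) and -0.00 in B10.

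Markers of other cell types moved with stimulation as well. Over all genes, 16.1% rose and 19.5% fell in NOD, and 13.7% rose and 18.1% fell in B10. Of 10 monocyte and macrophage markers, 9 fell in each strain, with medians of -1.82 in NOD and -1.44 in B10. Of 8 B cell markers, 6 fell in NOD, and 5 fell and 1, Cr2, rose in B10. Of 8 CD4 T cell markers, 5 fell in each strain, while Cd40lg, the CD40 ligand of activated helper cells, rose in both and Cd5 rose in NOD. Cd4 itself differed by -1.72 in NOD (limma, adjusted p = 2.27e-07) and by -1.46 in B10 (adjusted p = 9.16e-07). The part of these in the falls of Klrb1c, Klrd1, Klrk1 and Ctsw was not tested.

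Between strains at T0, 5 members were lower in NOD than in B10 and none was higher, while 5.79% of all genes passed the test (3.44% higher and 2.35% lower). The 5 were Nkg7, Klrb1c, Klrd1, Klrk1 and Ctsw. The median difference over the 10 members, NOD minus B10, was -0.27, against -0.01 over all genes. This comparison uses the same T0 arrays as the stimulation comparisons.

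Klrb1c differed most, with all 3 NOD T0 arrays more than 1 log2 unit below all 3 B10 T0 arrays (4.49 ± 0.11 in NOD and 5.72 ± 0.09 in B10, SD). The difference was -1.22 ± 0.09 (SE), or 2.34-fold (limma, adjusted p = 1.15e-05). Klrd1 averaged 6.33 ± 0.13 in NOD and 7.27 ± 0.08 in B10, a difference of -0.94 ± 0.11 (limma, adjusted p = 0.00037). Ctsw averaged 7.84 ± 0.08 in NOD and 8.74 ± 0.03 in B10, a difference of -0.90 ± 0.09 (limma, adjusted p = 6.88e-05). No NOD array reached the lowest B10 array for these 3 genes. Probe sequences were not used here, so whether a strain difference in sequence under a probe set lowers a NOD value was not tested.

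Nkg7 averaged 7.63 ± 0.14 in NOD and 8.77 ± 0.33 in B10, a difference of -1.15 ± 0.18, or 2.22-fold (limma, adjusted p = 0.00265). Klrk1 averaged 5.34 ± 0.12 in NOD and 5.80 ± 0.21 in B10, a difference of -0.46 ± 0.11 (limma, adjusted p = 0.0322). The Klrk1 call was lost without any 1 of the 3 NOD T0 arrays, without B10 T0 replicate 1 or 2, and when every probe set was tested (adjusted p = 0.0796). Gzmb averaged 5.74 ± 0.10 in NOD and 5.81 ± 0.18 in B10 before stimulation, a difference of -0.07 ± 0.17 that did not pass (limma, adjusted p = 0.922). It was 0.02 without B10 T0 replicate 2. Prf1 was the 1 member whose NOD arrays were all above the B10 arrays, by 0.15 on average, which did not pass the test (limma, adjusted p = 0.59).

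The erythroid markers moved with strain, and 5 of 5 were higher in NOD at T0 (median 2.38), while 3.44% of all genes were higher and 2.35% lower. Within B10 T0, replicate 3 had the highest erythroid mean (9.15). Of the 5 members called at T0, Nkg7 (8.40) and Klrk1 (5.58) were lowest on that array, while Ctsw, Klrd1 and Klrb1c stood with the other 2 arrays. In B10 T1, replicate 3 again had the higher erythroid mean. There Nkg7, Klrk1, Klrd1 and Ctsw were lower on replicate 3 than on replicate 2, and Klrb1c was higher. With the erythroid mean as a covariate, an alternative chosen after the values were seen, 3 members passed the test at T0. Over all genes, 149 passed with the covariate and 1155 without it. The erythroid mean was 9.87 or higher on every NOD array and 9.21 or lower on every B10 array. The covariate can thus not be fully told apart from strain, here or below, and a call can be lost with a difference as large. Klrb1c (-1.35, limma adjusted p = 0.00066), Ctsw (-0.89, adjusted p = 0.0109) and Klrd1 (-0.93, adjusted p = 0.0375) kept their calls. Nkg7 (-0.52, adjusted p = 0.352) and Klrk1 (-0.22, adjusted p = 0.824) lost theirs, and Gzmb turned to 0.34 (adjusted p = 0.778). Of 10 monocyte and macrophage markers, 6 were higher in NOD at T0, and of 8 neutrophil markers, 4 were. Among CD4 T cell markers, 1 of 8 was lower, Cd40lg, and Cd4 differed by -0.14 (adjusted p = 0.647). Cd8b1, which encodes a chain of the CD8 coreceptor, was lower in NOD by 0.49 on the log2 scale, and Cd8a differed by -0.18. Of 5 genes listed as markers of invariant NKT and innate lymphoid cells, 3 were lower in NOD at T0 (Zbtb16, Klrb1c and Rora, median of the 5 of -0.65). Klrb1c is a member, and Zbtb16 is counted again below among the transcription factors. The mean of the 5 was 8.08 to 8.20 on the NOD T0 arrays, against 8.71 to 9.07 on the B10 T0 arrays, without overlap. The list also holds Il7r, which is not restricted to these cells, so the mean does not measure them alone. The part of these other cell types in the strain differences was not tested.

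**Figure D3:**
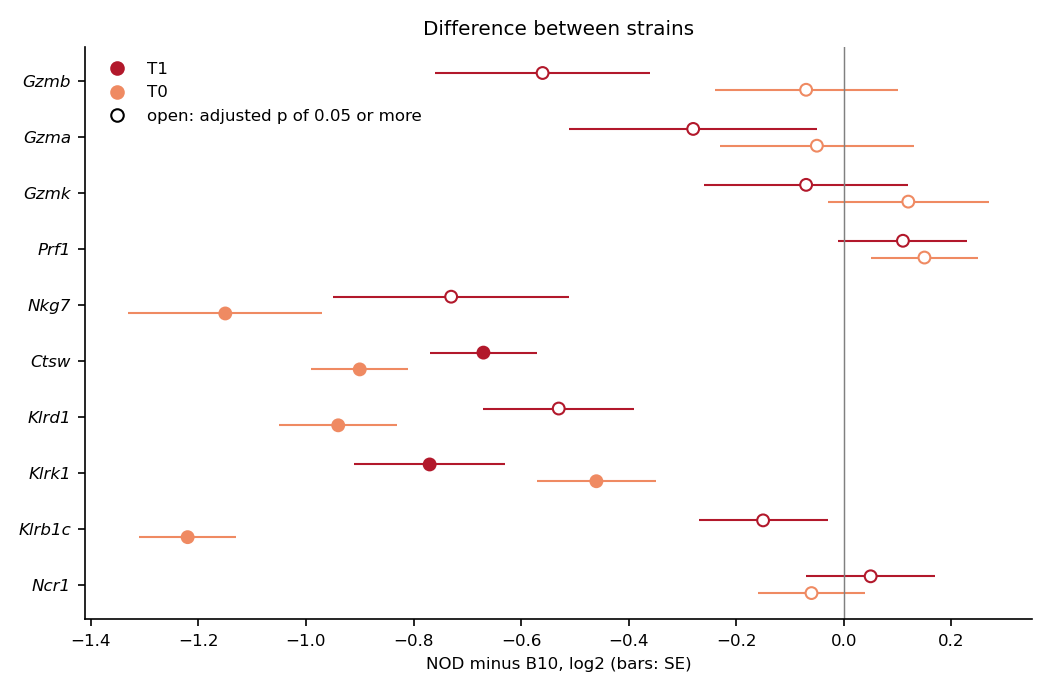
Log2 difference of NOD minus B10 for each gene at T1 and at T0, with error bars of 1 standard error from limma. Nkg7, Klrb1c, Klrd1, Klrk1 and Ctsw lie below 0 at T0, and the Klrb1c difference is near 0 at T1.

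Between strains at T1, 2 members passed the test, both lower in NOD, while 3.6% of all genes did (1.77% higher and 1.83% lower, or 353 and 365 genes, against 397 and 269 with arrays scaled to one 75th percentile). Klrk1 averaged 4.56 ± 0.12 in NOD and 5.33 ± 0.04 in B10, a difference of -0.77 ± 0.14 (limma, adjusted p = 0.0102). Ctsw averaged 6.66 ± 0.06 in NOD and 7.34 ± 0.09 in B10, a difference of -0.67 ± 0.10 (limma, adjusted p = 0.00473). Both calls were lost without B10 T1 replicate 2 and in a fit of the T1 arrays alone, and that of Klrk1 also without NOD T1 replicate 3. With the erythroid mean as a covariate limma called no member, and 3 members had an unadjusted p under 0.05, with -0.55 for Klrk1 (adjusted p = 0.276) and -0.67 for Ctsw (adjusted p = 0.0925).

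Klrd1 (-0.53 ± 0.14, limma adjusted p = 0.054), Nkg7 (-0.73 ± 0.22, adjusted p = 0.0965) and Gzmb (-0.56 ± 0.20, adjusted p = 0.17) did not pass at T1. The B10 T1 replicate 3 array decided the last 2: without it, Nkg7 (-1.06, adjusted p = 0.0207) and Gzmb (-0.94, adjusted p = 0.0118) passed. That array has the higher erythroid mean of the pair, 9.21 against 7.42 on replicate 2.

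The response to stimulation differed by strain for 1 member, Klrb1c, while 0.246% of all genes passed the interaction test (19 genes above 0 and 30 below, or 16 and 15 with arrays scaled to one 75th percentile). The NOD response minus the B10 response was 1.08 ± 0.15 (limma, adjusted p = 0.0132). The B10 fall was the larger one, and at T1 the strains lay 0.15 apart (NOD minus B10 of -0.15 ± 0.12, adjusted p = 0.585). Klrb1c lay below the median gene mean, and folds near background are understated. The call was lost without NOD T1 replicate 3 (1.04, adjusted p = 0.056) or B10 T1 replicate 2 (0.99, adjusted p = 0.0707). Differences in response of the other changing members were -0.49 ± 0.26 for Gzmb (adjusted p = 0.605), 0.42 ± 0.17 for Klrd1 (adjusted p = 0.495), -0.31 for Klrk1 and 0.22 for Ctsw.

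For each member whose group means spanned at least 1 log2 unit, the 3 genes with the most similar pattern were found by the root mean square difference of log2 values over the 10 arrays, after each gene's own mean was taken off. Nkg7 was nearest to Il2rb (0.130), which encodes the shared beta chain of the IL-2 and IL-15 receptors, and then to Izumo1r (0.191) and Ankib1 (0.252). Gzmb was nearest to Ccl1 (0.183), a chemokine of activated T cells, Prrg4 (0.203) and Bcat1 (0.224). Klrb1c was nearest to Atp6v1d (0.138), Actn1 (0.166) and Myb (0.196). Klrd1 was nearest to Pgm2l1 (0.184), Nsg2 (0.191) and Snx20 (0.195). Klrk1 was nearest to Oxr1 (0.125), Dynll2 (0.131) and Tdp2 (0.137). Ctsw was nearest to H2-T10 (0.141), Itgal (0.152) and Sec11c (0.174).

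Klrb1c, Klrd1 and Klrk1 belong to the NK gene complex on chromosome 6, where Klrd1 and Klrk1 are neighbours and 20 protein-coding genes lie between Klrb1c and Klrd1. Of 19 measured Klr genes, members included, 8 were lower and 1 was higher in NOD at T0, with a median of -0.38. Over all genes, 2.35% were lower and 3.44% higher at T0, and 1.83% were lower and 1.77% higher at T1. The 8 became 3 with the erythroid covariate, 4 without B10 T0 replicate 2, and 5 without any 1 of the NOD T0 arrays or with every probe set tested. At T1, 3 were lower and none higher (median -0.19), or 1 lower with the covariate, without NOD T1 replicate 3, without B10 T1 replicate 2, or from the T1 arrays alone. With stimulation 8 of the 19 Klr genes fell in NOD, while 19.5% of all genes did. In B10, 8 of the 19 fell and 1 rose, while 18.1% of all genes fell and 13.7% rose. The NOD count was 5 with arrays scaled to one 75th percentile and 5 without NOD T0 replicate 1. In B10 none rose without T1 replicate 2, T1 replicate 3 or T0 replicate 3, and 2 rose without either NOD T1 array. The Klr genes called between the strains at T0 thus did not all stand on one side, and the 1 higher in NOD was Klra17. Whether strain differences in sequence under these probe sets matter was not tested.

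A list of 24 NK receptor genes beyond the members holds all the Klr genes counted above except the members. Its counts thus overlap with those of the Klr genes and are not a separate result. Of the 24, 10 fell and 1 rose in NOD with stimulation, while 19.5% of all genes fell and 16.1% rose. Klra17, Klrb1b, Klrb1f, Klrc1 and Klri1 are in both counts of NOD falls. In B10, 9 of the 24 fell and 3 rose, while 18.1% of all genes fell and 13.7% rose. With arrays scaled to one 75th percentile, 7 fell and 2 rose in NOD, and 2 also rose there without NOD T0 replicate 2, B10 T1 replicate 2 or B10 T1 replicate 3. Cd96, a receptor for nectin-family ligands, fell by 2.25 in NOD and fell by 2.28 in B10 on the log2 scale. Clec2d, a ligand of lectin-like receptors, fell by 1.36 in NOD and fell by 1.04 in B10. Crtam, an adhesion receptor of activated lymphocytes, rose by 0.76 in NOD and by 2.12 in B10, and the interaction was -1.37 ± 0.20 (limma, adjusted p = 0.0175), a call lost without NOD T1 replicate 3, NOD T0 replicate 1 or B10 T1 replicate 2, with arrays scaled to one 75th percentile (-1.31, adjusted p = 0.052), and with every probe set tested (adjusted p = 0.078). Crtam read 7.31 and 7.22 in NOD T1, against 6.56, 6.57 and 6.40 in NOD T0, and 8.52 and 8.03 in B10 T1, against 6.28, 6.20 and 5.97 in B10 T0.

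Cd160, a receptor for class I molecules and HVEM, had 5.57 and 5.56 in NOD T1, against 4.84, 5.34 and 5.09 in NOD T0, and 8.02 and 7.21 in B10 T1, against 5.71, 5.67 and 5.72 in B10 T0. Its T1 levels were far apart between strains, by -2.05 ± 0.21 (limma, adjusted p = 0.000261). The response was 1.92 in B10 (adjusted p = 5.41e-06) and 0.47 in NOD (adjusted p = 0.0788), but the difference between the responses, -1.44, did not pass (adjusted p = 0.0608).

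Klrc1 encodes NKG2A, the inhibitory partner of the Klrd1 product. Klrc1 had 5.49 and 5.37 in NOD T1, against 6.52, 6.39 and 6.09 in NOD T0, and 7.56 and 7.21 in B10 T1, against 7.42, 7.30 and 6.90 in B10 T0. It was lower in NOD at T0 (-0.87 ± 0.15, limma adjusted p = 0.00517) and at T1 (-1.96 ± 0.19, adjusted p = 0.00015), and the T0 call was lost with the erythroid covariate (-0.42, adjusted p = 0.522). Its fall of 0.91 with stimulation in NOD passed the test, and the B10 value of 0.18 did not (adjusted p = 0.505); the interaction of -1.09 did not pass either (adjusted p = 0.116). Klrd1, its partner, fell in both strains.

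At T0, 6 of these 24 receptors were lower and 2 higher in NOD, while 2.35% of all genes were lower and 3.44% higher. Klra2, Klrb1b, Klrc1, Klrc2 and Klrg1 (lower) and Klra17 (higher) are also in the Klr counts above, as are Klrc1 and Klrg1 at T1. At T1, 4 of the 24 were lower, while 1.83% of all genes were. At T0, 1 was lower with the erythroid covariate, 3 without B10 T0 replicate 2, and 10 with array weights. Without replicate 1 of NOD T0 or of B10 T0, 1 was higher. At T1, 2 were lower with the covariate or from the T1 arrays alone. Klra17, which encodes Ly49Q, known from plasmacytoid dendritic cells, went the other way from most. Klra17 had 4.40 and 4.46 in NOD T1, against 6.90, 6.32 and 6.59 in NOD T0, and 4.23 and 4.69 in B10 T1, against 4.79, 5.12 and 5.07 in B10 T0. It was higher in NOD at T0 by 1.61 ± 0.16 (limma, adjusted p = 7.77e-05), and the strains overlapped at T1. Of 10 monocyte and macrophage markers, 6 were also higher in NOD at T0, as were 4 of 8 neutrophil markers. The part of plasmacytoid dendritic cells or of other cell types in the Klra17 values was not tested. Siglech, a marker of plasmacytoid dendritic cells, differed by 0.19 between the strains at T0 (adjusted p = 0.436) and fell by 2.29 in NOD and fell by 2.40 in B10 with stimulation.

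**Figure D4:**
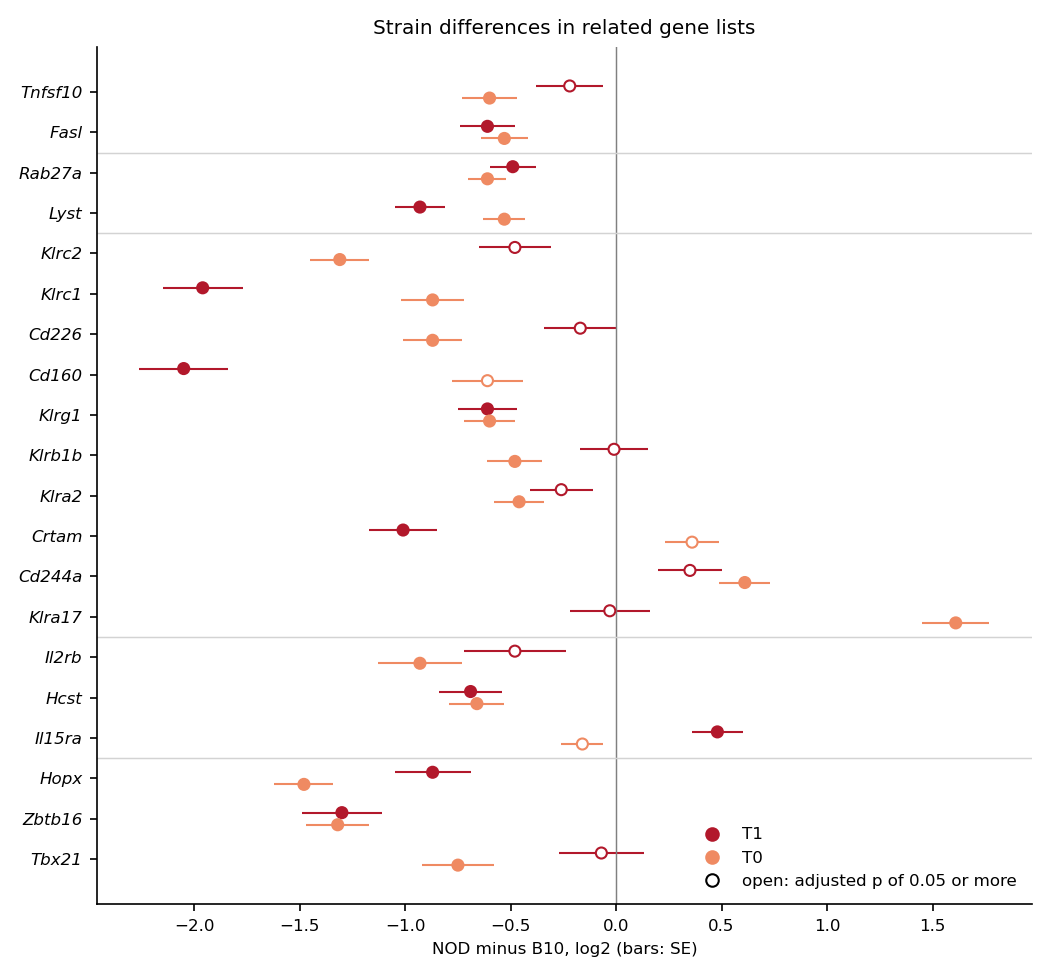
Log2 difference of NOD minus B10 at T1 and at T0 for the genes of the 5 related lists that passed the test at either time, lists divided by grey lines, with error bars of 1 standard error from limma; open points did not pass. Klra17 stands above the others at T0, and Cd160 and Klrc1 lie near -2 at T1.

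Of 12 further granzyme and granule cargo genes, 4 rose in NOD and 2 in B10 with stimulation, and none fell. Over all genes, 16.1% rose in NOD and 13.7% in B10, so the B10 count lies near the share over all genes. Serpinb9, an inhibitor of granzyme B, rose by 2.25 ± 0.19 in NOD (limma, adjusted p = 1.26e-06) and by 1.82 ± 0.19 in B10 (adjusted p = 7.61e-06). Srgn, the proteoglycan core that holds granule proteases, rose by 0.34 in NOD and by 0.49 in B10. Gzmc and Gzmd rose in NOD by 0.40 and 0.35, while their B10 values of -0.30 and 0.19 did not pass the test. The small rises were fragile: Gzmc lost its call without NOD T1 replicate 3 or NOD T0 replicate 1, Gzmd without any 1 NOD array or B10 T0 replicate 2, and Srgn without NOD T1 replicate 3 or any 1 NOD T0 array, and in B10 without T1 replicate 2. Fasl, the death ligand of a granule-free killing route, was lower in NOD at T0 (-0.53, adjusted p = 0.00979) and at T1 (-0.61, adjusted p = 0.0223). Tnfsf10, which encodes the death ligand TRAIL, was lower in NOD at T0 (-0.60, adjusted p = 0.0193) and did not pass at T1. The strain calls of both were lost with the erythroid covariate. Those of Fasl were also lost without NOD replicate 3 at either time, B10 T0 replicate 1 or B10 T1 replicate 2, and that of Tnfsf10 without NOD T0 replicate 1 or 3 or B10 T0 replicate 2. With every probe set tested, the Fasl call at T1 (limma, adjusted p = 0.0574) and the Tnfsf10 call (adjusted p = 0.0629) were lost. The Fasl call at T1 was also lost with array weights and from the T1 arrays alone.

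Of 10 genes of granule release, 7 fell in NOD, or 5 with 1 rising when arrays were scaled to one 75th percentile, and 5 fell and 1 rose in B10. On the deposited scale, 19.5% of all genes fell in NOD, and 18.1% fell and 13.7% rose in B10. Without NOD T0 replicate 3 or B10 T0 replicate 2, 6 fell and 1 rose in NOD, and without B10 T0 replicate 2, 2 rose in B10. Lyst, the lysosomal trafficking gene mutated in beige mice, fell by 1.51 in NOD and fell by 1.12 in B10, and was lower in NOD at T0 (-0.53) and T1 (-0.93, limma adjusted p = 0.00185), the T0 call being lost with the erythroid covariate, where the difference was -0.60 (adjusted p = 0.184). Vamp8, a fusion protein of secretory vesicles, fell by 1.44 in NOD and fell by 1.36 in B10. Cd63, a tetraspanin of the granule membrane, had a value of 0.31 in NOD, which did not pass, and rose by 0.90 in B10, a call lost without both B10 arrays of replicate 3. Vamp8 is also expressed in myeloid cells, whose markers fell with stimulation as given above. The part of these cells in the Vamp8 fall was not tested.

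Of 15 adaptors and cytokine receptors, 1 rose in each strain, against 16.1% of all genes in NOD and 13.7% in B10. Of the same 15, 7 fell in NOD and 8 in B10, against 19.5% and 18.1% of all genes. Without NOD T1 replicate 3, 2 rose in each strain, and without NOD T1 replicate 2, 2 rose in B10. Il15ra, which presents IL-15, rose by 1.97 in NOD and by 1.33 in B10. Il18r1, a chain of the IL-18 receptor, fell by 2.64 in NOD and fell by 1.69 in B10. Tyrobp (DAP12) and Syk, which carry signals from activating receptors and are also abundant in myeloid cells, had differences of -1.69 and -1.79 in NOD and of -1.55 and -1.51 in B10, all past the test. The part of myeloid cells in these falls was not tested. Between strains at T0, 2 of the 15 were lower in NOD and none was higher, against 2.35% and 3.44% of all genes. At T1, 1 was lower, Hcst, and 1 was higher, Il15ra (0.48), against 1.83% and 1.77% of all genes. That Il15ra call was lost without any 1 array. Hcst, named after its values were seen, encodes DAP10, the adaptor of NKG2D. It was lower in NOD at T0 (-0.66, limma adjusted p = 0.00842) and at T1 (-0.69, adjusted p = 0.0296), calls lost with the erythroid covariate although the differences were as large, at -0.67 and -0.70. The T0 call was also lost without NOD T0 replicate 3, and the T1 call without any 1 of the 4 T1 arrays.

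Among 14 transcription factors listed for cytotoxic lineages, 5 rose and 4 fell in NOD, while 16.1% of all genes rose and 19.5% fell. Not all 14 are particular to these lineages. Zbtb7b, counted among the falls in both strains, is also among the CD4 T cell markers above, and Gata3 is counted among the rises in both. In B10, 5 of the 14 rose and 5 fell, while 13.7% of all genes rose and 18.1% fell. Without NOD T1 replicate 3, 3 rose and 5 fell in NOD. Tbx21 (T-bet), which drives granzyme and perforin genes in cytotoxic cells, rose by 3.15 ± 0.19 in NOD (limma, adjusted p = 5.57e-08) and by 2.47 ± 0.19 in B10 (adjusted p = 3.9e-07). Ets1 fell by 2.32 in NOD and fell by 2.15 in B10. Zbtb16 (PLZF), the factor of NKT and other innate-like T cells, had 7.14, 7.15 and 7.11 in NOD T0, against 8.90, 8.31 and 8.17 in B10 T0, a difference of -1.32 ± 0.15 (limma, adjusted p = 0.000325). At T1 it differed by -1.30 ± 0.19 (adjusted p = 0.0027). No NOD array reached the lowest B10 array at either time, and with the erythroid covariate the difference was -1.13 at T0 (adjusted p = 0.0529) and -1.12 at T1 (adjusted p = 0.0761), so that neither call held. Hopx, a homeodomain protein of effector T cells, was lower in NOD by 1.48 at T0 (adjusted p = 8.07e-05) and by 0.87 at T1 (adjusted p = 0.0194), the T1 call being lost without NOD T1 replicate 3 or B10 T1 replicate 2, with every probe set tested, with array weights, from the T1 arrays alone, and with the erythroid covariate (-0.56, adjusted p = 0.378).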

How the data were processed

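The authors deposited log2 intensities made with RMA in Affymetrix Power Tools, per the submitters' processing notes. No version is named, and log2 was read from the span of the values. RMA corrects background, gives all arrays one distribution of values and summarises probes, which can narrow large differences. Of 35486 probe sets, 21789 had 1 gene symbol; the one with the highest mean stood for each of 19938 genes, with no filter on low values. The 4 group means were estimated from all 10 arrays together with limma 3.58.1 in R 4.3.3 (6 residual degrees of freedom, eBayes, two-sided). It was checked on simulated data. Figures used matplotlib 3.10.9.

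The members, gene lists and tests were chosen with earlier results of these data known. In each list, at most 6 genes, those with the largest called differences, were named, and others are marked as named after their values were seen. Same-numbered T0 and T1 arrays deviated from their group means with r of -0.13 and 0.12 in NOD and 0.26 and 0.25 in B10, so the numbers were not taken as pairs. No T1 replicate 1 of either strain was among the samples. Alternatives were other scalings, filters, array weights, probe-set rules, groups in the fit, a replicate block, each array left out, and an erythroid covariate.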

Additional observations from a re-analysis of the deposited data

Results flagged for a closer look

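The interaction test, in which the NOD response minus the B10 response is set against 0, singled out 3 genes among the members and related lists. Klrb1c had 1.08 (limma, adjusted p = 0.0132), as described above. Klra17 read between 4.23 and 4.69 on the T1 arrays of both strains, below the array medians of 6.18 to 6.23, and folds near background are understated. Its stimulation difference was -2.17 in NOD and -0.54 in B10. The B10 call was lost without B10 T0 replicate 2 or 3 and with every probe set tested, and the B10 value was -0.31 without B10 T1 replicate 2. The Klra17 interaction was -1.64 ± 0.25 (limma, adjusted p = 0.0177). Without 1 array at a time, its value lay between -1.87 and -1.41, and its call was lost without NOD T1 replicate 2, NOD T1 replicate 3 or B10 T0 replicate 1. It was also lost with every probe set tested (adjusted p = 0.0905) and without both B10 arrays of replicate 3 (-1.45, adjusted p = 0.0842). Crtam had -1.37 ± 0.20 (adjusted p = 0.0175), with a stimulation difference of 0.76 in NOD and 2.12 in B10. Without 1 array at a time, its value lay between -1.62 and -1.12, and its call was lost without NOD T1 replicate 3, NOD T0 replicate 1 or B10 T1 replicate 2. It was also lost with arrays scaled to one 75th percentile (-1.31, adjusted p = 0.052) and with every probe set tested (adjusted p = 0.078). Groups of 2 and 3 arrays were too small for a test of single outlying arrays.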

How the results depend on the processing

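Leaving out 1 array at a time gave 4 to 5 called members for stimulation in NOD, 4 to 6 in B10, 4 to 5 for strain at T0, 0 to 4 for strain at T1 and 0 to 1 for the interaction. Strain at T1 gave 0 without B10 T1 replicate 2, 1 without NOD T1 replicate 3, and 4 without B10 T1 replicate 3. It gave 0 from the T1 arrays alone and 4 without both B10 arrays of replicate 3. With the erythroid covariate, T0 gave 3 and T1 gave 0. Among genes above the median mean, which keeps 4 members, 2 were called for stimulation in NOD, 2 in B10, 2 for strain at T0, 1 at T1 and 0 for the interaction. The omission of both replicate 3 arrays and the erythroid covariate were chosen after the values were seen. Direction turned for Gzmb at T0 (-0.14 to 0.02 without 1 array at a time, 0.02 without B10 T0 replicate 2, and 0.34 with the covariate) and for Nkg7 in stimulated B10 (-0.64 to 0.03 without 1 array at a time, 0.03 without B10 T1 replicate 3). With the replicate number as a block, 5, 5, 5, 2 and 1 members were called in the same order of comparisons. The Klrb1c call in stimulated NOD was lost (-0.31, adjusted p = 0.0775), and Gzmk gained 1. Scaling to one 75th percentile moved the median of all genes to 0.21 for stimulation in NOD and to 0.10 in B10, with 5393 genes higher and 3145 lower in NOD. The T0 calls of Klrb1c, Klrd1 and Ctsw held under every alternative that gave them a value, and that of Nkg7 under all but the covariate. Levels near background limit the small values of Klrb1c, Gzmk and Ncr1.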
